A study of Mus musculus with 18 samples.

Results

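The calcium/calmodulin-dependent kinases were followed on every probe set assigned to exactly 1 of the 8 gene symbols Camk2a, Camk2b, Camk2d, Camk2g, Camk1, Camk4, Camkk1 and Camkk2. The array annotation gave such probe sets for 18193 genes in all. Of the 8 kinase genes, 7 were measured, on 27 probe sets, and Camkk1 had no probe set in the annotation used here. The genes were chosen by family, with values of the comparison described here already known from these arrays. The differences between the groups are therefore given as a description, without p-values.

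These kinases carry a rise in cell calcium onto other proteins. Calcium binds calmodulin, which then opens the kinases' autoinhibited catalytic domain. CaMKII is a large ring assembled from alpha, beta, delta and gamma subunits, and the alpha and beta subunits are the abundant ones in forebrain neurons, where the enzyme is a main protein of the postsynaptic density and is needed for long-term potentiation. CaMKI and CaMKIV form a separate cascade, in which the kinases Camkk1 and Camkk2 phosphorylate and activate them. The messenger RNA of Camk2a is also a classic example of an mRNA that travels into dendrites.

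The study asked which messages could be recovered from orexin neurons, the wake-promoting peptide neurons of the lateral hypothalamus. All samples came from transgenic mice, whose strain is given as C57BL/6J X DBA/2J. Their BAC transgene put a flag-tagged rat poly(A)-binding protein, together with eGFP, in the place of the orexin coding sequence, so that the orexin gene's own regulatory sequence drove it. The labels do not say how many founder lines were used. The first group (IP, 9 arrays) held RNA pulled down with anti-flag beads from homogenised, formaldehyde-fixed brain. The other (WB, 9 arrays) held whole brain total RNA of the same kind of mice. Ages are given as 11 and 14 weeks without assignment to samples, and the labels do not say whether each sample came from its own animal, so the errors may in part be technical. Because the pull-down started from whole brain, IP against WB compares captured RNA with total RNA. Which cells the captured RNA came from, how well each message was captured and what bound the beads non-specifically cannot be told apart. The samples include no pull-down from mice without the transgene.

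The deposited values are array intensities, on a linear scale without unit. Differences are IP minus WB of log2(intensity + 16), which understates the change of dim probe sets. A probe set is said to have risen or fallen where its limma adjusted p over 45037 probe sets was below 0.05. On the arrays as a whole the mean intensity was 759.9 to 994.3 in IP and 642.6 to 687 in WB, and the hybridization controls averaged 13.69 to 15.31 in IP and 13.05 to 13.54 in WB (log2). IP replicates 2, 5, 6 and 8 had the highest means and controls. The log2 ratio of the 3′ to the 5′ Gapdh control probe set, a measure of RNA quality and labelling, was 3.37 to 5.55 in IP and 1.33 to 1.78 in WB. The same ratio for beta-actin was -1.33 to 0.00 in IP and -0.23 to 0.03 in WB. Whether these array measures have a part in the kinase values was not tested.

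Most kinase probe sets gave less signal in the immunoprecipitate than in whole brain, but 4 of the 7 genes had 1 probe set that gave more. Of the 27 probe sets 4 rose, 20 fell and 3 did not pass the threshold. Over all 45037 probe sets, 14.2% rose and 30.8% fell, or 45.0% in either direction. The median difference of the kinase probe sets was -1.20, beside -0.23 over all probe sets. On 3 kinase probe sets every IP array lay above every WB array, and on 11 every IP array lay below, while on the remaining 13 the groups overlapped. Over all probe sets those complete separations made up 5.22% and 10.3%.

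**Figure D1:**
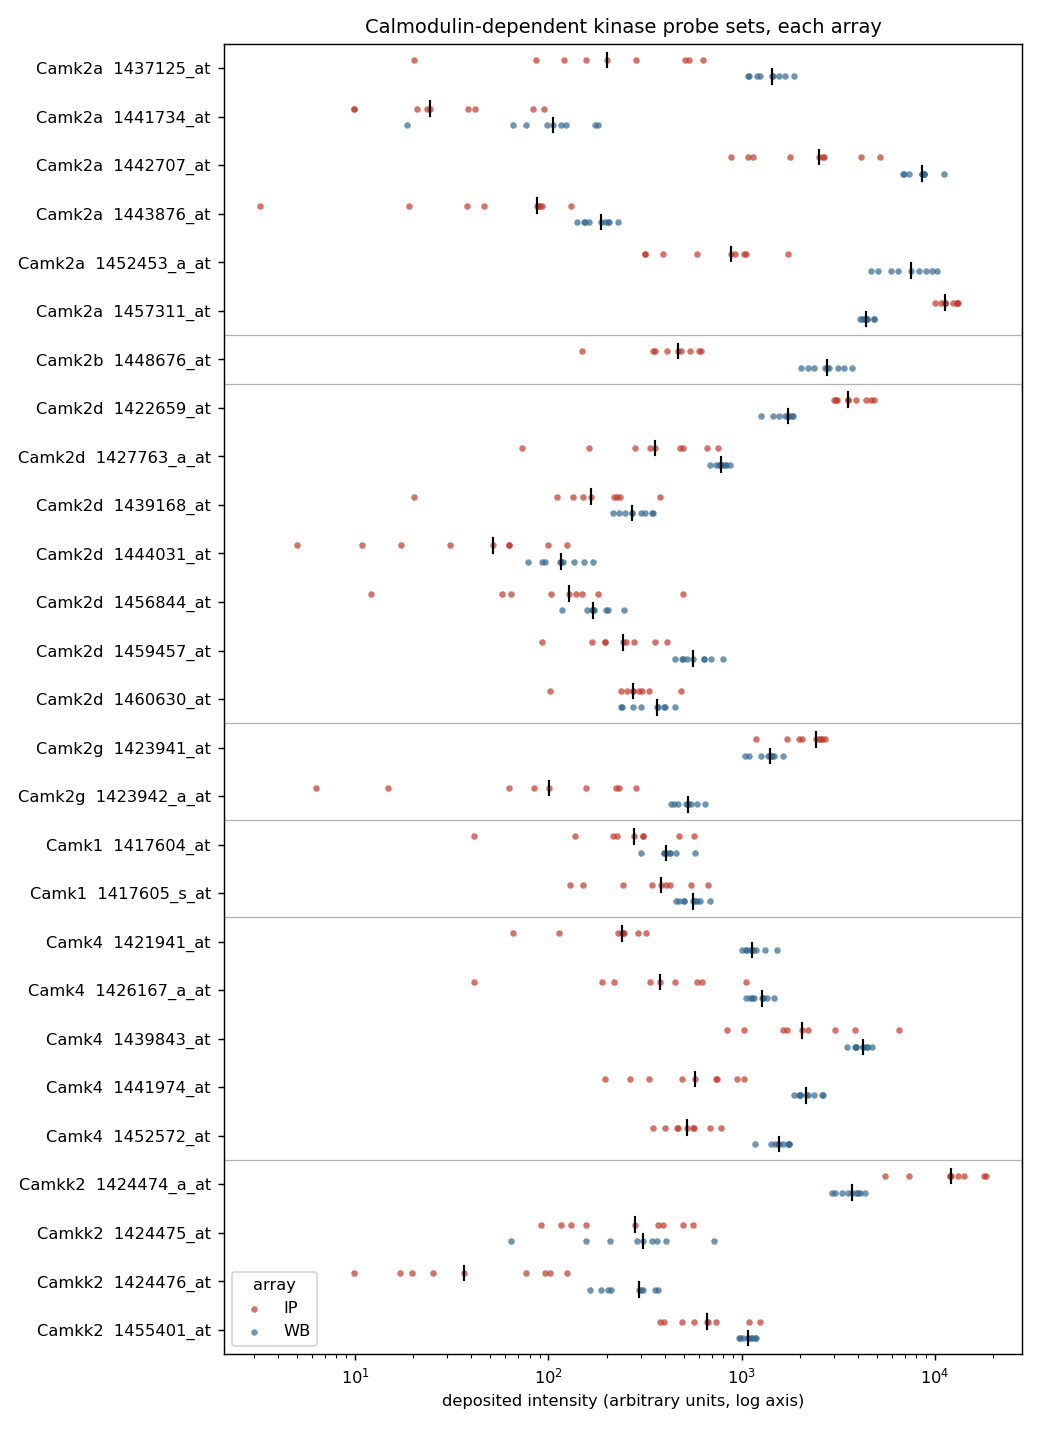
Intensity of the 27 kinase probe sets (horizontal axis, log scale) on each of the 9 IP and 9 WB arrays, with the group median as a black tick. The IP points lie to the right of all WB points on 1457311_at of Camk2a, 1422659_at of Camk2d and 1424474_a_at of Camkk2, and spread far more widely than the WB points on most other rows.

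The alpha subunit of CaMKII had 6 probe sets, of which 5 fell and 1 rose. The probe set 1452453_a_at, built on an mRNA record, read 317 to 1738 in IP (median 880) and 4635 to 10241 in WB (median 7474). Its log2 mean was 9.47 ± 0.85 in IP and 12.81 ± 0.41 in WB (SD, n = 9 each). No IP array reached the lowest WB array, and the fall was 10.1-fold (difference -3.34, SE 0.27), the largest among the 27. On 1442707_at the IP arrays read 876 to 5156 (median 2497) and the WB arrays 6822 to 11120 (median 8567), a 3.98-fold fall (-1.99, SE 0.26). A wider spread was seen on 1437125_at, with 20.1 to 627 in IP (median 200.1) and 1080 to 1853 in WB (median 1437), a fall of 6.43-fold. Here too the groups did not overlap.

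The other 2 falling Camk2a probe sets were dim. On 1443876_at the arrays read 3.22 to 132 in IP (median 87.8) and 141 to 228 in WB (median 187), without overlap (difference -1.47). On 1441734_at they read 9.86 to 95.4 in IP (median 24.5) and 18.6 to 180 in WB (median 105), and 7 of the 9 IP arrays lay within the WB range. Both had IP means (6.14 and 5.59, log2) below the 6.31 of the brightest trpn control, a bacterial sequence used here as a mark of dim signal, so their folds depend on the constant added.

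The remaining Camk2a probe set, 1457311_at, went the other way on every array. It read 10024 to 13165 in IP (median 11243) and 4100 to 4848 in WB (median 4372), a 2.65-fold rise (1.40, SE 0.09). This was also the steadiest of the 27 in IP, with an SD of 0.14 beside 0.08 in WB. Like 4 of the 5 falling probe sets, it was built on an expressed sequence tag. The mean over the 6 probe sets was lower in IP (-1.55, SE 0.19), so that the sign reported for Camk2a rests on which probe set stands for the gene.

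Camk2b, the beta subunit, which binds actin in dendritic spines, had a single probe set, and it fell. It read 149 to 613 in IP (median 470) and 2035 to 3709 in WB (median 2771). Every IP array was below every WB array, and the fall was 6.43-fold (-2.69, SE 0.21), nearly that of 1437125_at of Camk2a. The lowest IP array was replicate 9, and leaving it out gave a difference of -2.51.

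Camk2d, the delta subunit, best known as the CaMKII form of heart muscle and also present in brain, had 7 probe sets, with 1 rise, 4 falls and 2 that did not pass. The riser, 1422659_at, built on an mRNA record, read 2984 to 4844 in IP (median 3538) and 1263 to 1844 in WB (median 1734). The groups did not overlap, and the rise was 2.26-fold (1.18, SE 0.12). A second mRNA-based probe set, 1427763_a_at, fell by an almost equal amount (-1.18), with 73 to 757 in IP (median 357) and 681 to 866 in WB (median 783), and 8 of 9 IP arrays lay below the whole WB range. Among the tag-based probe sets, 1459457_at read 93.2 to 410 in IP and 449 to 795 in WB, a fall of 2.44-fold without overlap. The falls on 1444031_at (-1.23) and 1439168_at (-0.80) had overlapping groups, and 1444031_at was dim, with an IP mean of 5.82.

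When each of the 18 arrays was left out in turn, 1439168_at missed the threshold 13 times, with a difference of -0.52 without IP replicate 9. Neither 1456844_at (-0.62, 95% interval -1.39 to 0.16) nor 1460630_at (-0.29, 95% interval -0.77 to 0.19) passed with all arrays. For 1456844_at the difference was -0.35 without IP replicate 8 and -0.87 without IP replicate 9, where it passed as a fall. For 1460630_at it was -0.13 without IP replicate 2. The mean over the 7 was -0.60 (SE 0.13).

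Camk2g, the gamma subunit, known in neurons for carrying calmodulin to the nucleus, had 2 probe sets built on the same tag that moved apart. On 1423941_at the arrays read 1181 to 2686 in IP (median 2428) and 1033 to 1625 in WB (median 1405), a rise of 1.59-fold (0.67, SE 0.15), with 8 of 9 IP arrays above all WB arrays. On 1423942_a_at they read 6.3 to 285 in IP (median 101) and 430 to 646 in WB (median 524), a fall of 4.95-fold (-2.31, SE 0.40) without overlap. The rising signal was not held under every scaling, since it was -0.27, without passing, on the scale of the hybridization controls.

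Camkk2, the upstream kinase that activates CaMKI and CaMKIV and also the energy sensor AMPK, had 4 probe sets. The strongest rise among the 27 was on 1424474_a_at, which read 5494 to 18350 in IP (median 12055) and 2934 to 4326 in WB (median 3719), or 3.23-fold (1.69, SE 0.18). No IP array fell into the WB range. In contrast 1424476_at, derived from the same tag, fell 4.48-fold without overlap, with 9.83 to 125 in IP (median 36.6) and 164 to 368 in WB (median 296), although its IP mean of 5.93 is dim. A further probe set of that tag, 1424475_at, did not pass (-0.16, 95% interval -0.95 to 0.64), and its IP arrays lay within the WB range of 64.3 to 722. The remaining one, 1455401_at, fell 1.66-fold, with 377 to 1239 in IP and 964 to 1180 in WB, and IP replicate 2 exceeded every WB array. As the mean over the 4 the difference was -0.34 (SE 0.18), which did not pass.

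Camk4, the mainly nuclear kinase that phosphorylates the transcription factor CREB and is abundant in cerebellar granule cells, was lower on all 5 of its probe sets. On 1421941_at the arrays read 65.3 to 318 in IP (median 241) and 999 to 1514 in WB (median 1126), a 5.36-fold fall (-2.42, SE 0.23). On 1441974_at they read 196 to 1024 in IP (median 575) and 1858 to 2629 in WB (median 2143), and on 1452572_at 347 to 778 in IP (median 519) and 1168 to 1759 in WB (median 1563). These 3 probe sets separated the groups completely.

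The probe set 1426167_a_at read 41.1 to 1053 in IP (median 377) and 1051 to 1464 in WB (median 1273), so that only the highest IP array touched the WB range. On 1439843_at the difference was smallest (-0.96), and the IP arrays ran from 841 to 6510 (median 2046) against 3517 to 4711 in WB (median 4237). IP replicate 2 was there above every WB array, and without it the difference was -1.16. With median centring the difference of 1439843_at was -0.53, which did not pass. The mean over the 5 was -1.76 (SE 0.16).

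Camk1, the broadly expressed kinase of the cascade, showed falls of -0.77 (SE 0.31) on 1417604_at and -0.71 (SE 0.25) on 1417605_s_at. The first read 41.1 to 565 in IP (median 278) and 301 to 573 in WB (median 405), and the other 129 to 670 in IP (median 383) and 455 to 683 in WB (median 562). The groups overlapped on both. With single arrays left out, 1417604_at missed the threshold in 13 of 18 fits, and its difference was -0.50 without IP replicate 6. Under quantile normalization, and again under median centring, neither probe set passed. The ending _s_at marks a probe set that can match more than 1 transcript family.

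**Figure D2:**
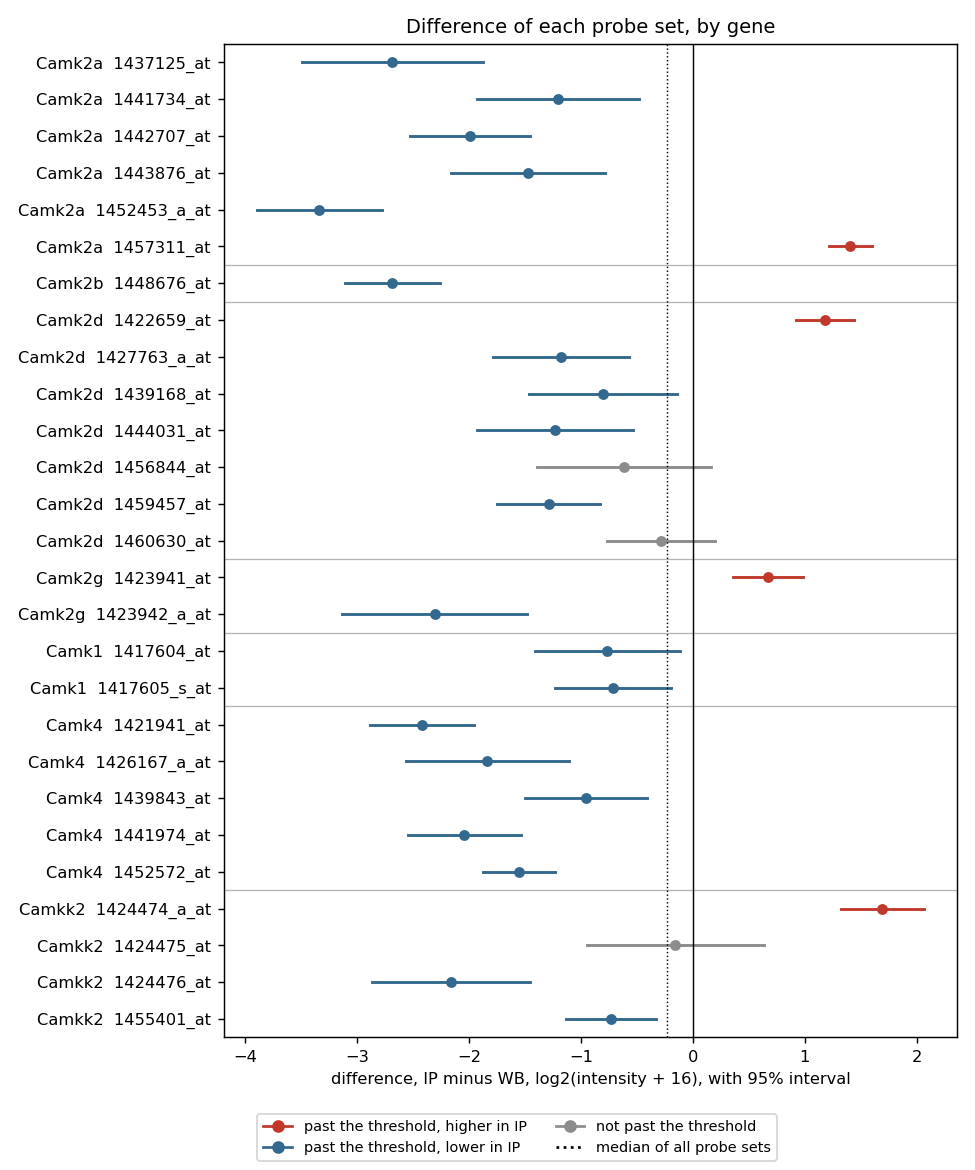
Difference between IP and WB for each kinase probe set (log2 scale, point) with its 95% interval, grouped by gene, and the median of all 45037 probe sets as a dotted line. Camk2a, Camk2d, Camk2g and Camkk2 each have 1 red point right of 0 and at least 1 blue point left of it, whereas all 5 Camk4 points are on the left.

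Probe sets of 1 gene thus moved in opposite directions in Camk2a, Camk2d, Camk2g and Camkk2, which are 4 of the 6 kinase genes with over 1 probe set. Such genes made up 22.0% of all 9010 genes with over 1 probe set, and 43.3% of the 1897 genes with 4 to 7, the numbers held by Camk2a, Camk2d, Camk4 and Camkk2. The share depends on how many probe sets a gene has. Among 244 genes with 6 probe sets, as Camk2a has, 54.1% moved in opposite directions, and among 97 with 7, as Camk2d has, 69.1%. For 5, as in Camk4, it was 47.9%, for 4, as in Camkk2, 36.7%, and for 2, as in Camk2g and Camk1, 11.6%. The distance between the lowest and the highest difference of a gene was 4.74 in Camk2a and 3.85 in Camkk2, beside medians of 2.49 and 1.95 over genes with as many probe sets. It was 2.98 in Camk2g (median 0.85), 2.47 in Camk2d (median 2.75), 1.46 in Camk4 (median 2.32) and 0.06 in Camk1 (median 0.85).

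Within an array, the ratio of 2 probe sets of a gene is nearly free of a factor scaling that array where both are bright. This does not hold where a probe set is dim, because 16 was added to each intensity before taking log2. The Camk2g denominator, 1423942_a_at, read as low as 6.3 in IP, so the Camk2g ratios below still depend on the array's scale. Each rising probe set was set over each other probe set of its gene, 15 ratios in all. Because the probe sets were picked by their calls, a higher mean ratio in IP follows from that choice, and the ratios are given only to show the arrays. For Camk2a, 1457311_at over 1452453_a_at had a log2 ratio of 2.68 to 5.22 in IP and -1.21 to -0.07 in WB. For Camk2g the ratio was 2.28 to 6.31 in IP and 1.07 to 1.83 in WB. For Camkk2, 1424474_a_at over 1424475_at had a ratio of 4.22 to 6.71 in IP and 2.48 to 5.25 in WB, so that the groups overlapped.

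**Figure D3:**
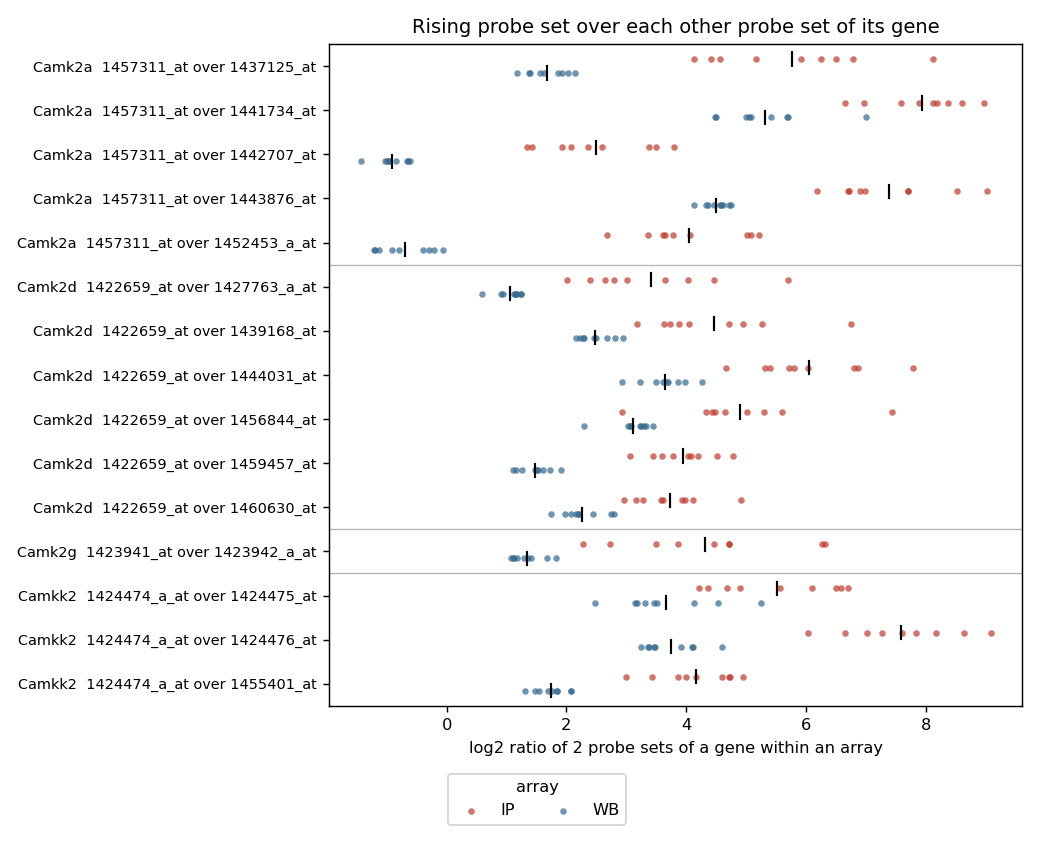
Log2 ratio of the rising probe set over each other probe set of the same gene, computed within each of the 9 IP and 9 WB arrays, with group means as black ticks. The numerators were picked for their rise, which places the IP means to the right, and the IP points are spread more widely than the WB points in most rows.

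The calls were also set beside brightness in WB. Among the 6 genes with over 1 probe set, the brightest in WB rose in 3 (Camk2d, Camk2g and Camkk2) and fell in 3 (Camk2a, Camk1 and Camk4). Of the 20 other probe sets 1 rose, 16 fell and 3 did not pass. Over all genes with over 1 probe set, 24.4% of the brightest rose and 30.5% fell, and 12.3% of the others rose and 35.2% fell. By record, 3 of 17 tag-based kinase probe sets rose and 12 fell, and 1 of 8 built on an mRNA record rose and 7 fell. The shares over all probe sets of each kind of record were not taken, so these counts describe the kinase probe sets only.

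The IP arrays differed among themselves far more than the WB arrays. The median SD of the kinase probe sets was 0.85 in IP and 0.22 in WB (log2, n = 9 each), and 26 of the 27 had the larger SD in IP. Over all probe sets the medians were 0.74 in IP and 0.34 in WB, so a wider spread in IP was not particular to the kinases. The share of all probe sets with the larger SD in IP was not counted. The 4 risers had IP SDs of 0.14 to 0.56, and the 20 that fell 0.35 to 1.35.

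How the arrays are scaled moved the size of these differences. The median difference over all probe sets was -0.23 as deposited, and the scaling shifted it by 0.34 under quantile normalization, by 0.42 under median centring and by -0.94 when the hybridization controls set the scale. As deposited 31.6% of all calls were rises, and under those scalings 52.4%, 60.6% and 4.04%. The kinase counts were 4 rises and 20 falls as deposited, 4 and 15 after quantile normalization, 4 and 13 when medians were aligned, and 2 and 23 with the hybridization controls. Under the last, 1457311_at of Camk2a (0.46) and 1424474_a_at of Camkk2 (0.75) still rose. There 1422659_at of Camk2d (0.23) did not pass, and 1423941_at of Camk2g turned to -0.27, which did not pass either. Relative to the median of all probe sets, the 4 risers stood 0.90 to 1.92 higher as deposited and 0.50 to 0.88 higher after quantile normalization. The alternative without IP replicates 2, 5, 6 and 8 gave 4 rises and 17 falls.

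**Figure D4:**
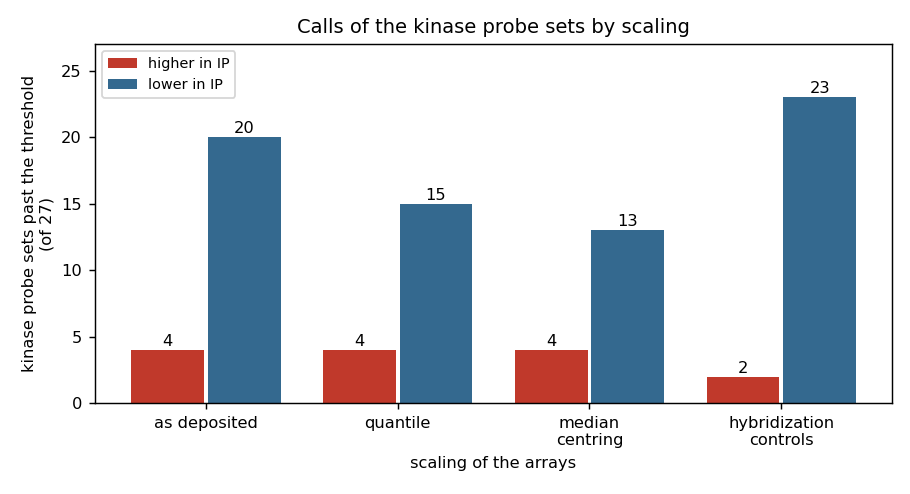
Number of the 27 kinase probe sets that rose (red) or fell (blue) in IP under 4 scalings of the arrays. Falls outnumber rises under each, by 20 to 4 as deposited and by 13 to 4 with median centring.

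The genes around these kinases were taken from 5 lists with 52 genes, of which 45 were measured and 7 were not analysed here, among them the 3 calmodulin genes. These lists too were chosen with earlier results of these data known, and the genes named below are the largest rises and falls. Their adjusted p-values therefore describe the values and are not independent tests. Each gene was read on its brightest probe set, judged by the mean of all 18 arrays. In the limma fit over all probe sets 12 rose, 16 fell and 17 did not pass, with a median difference of -0.33. Over all 18193 genes represented in this way 21.7% rose and 21.7% fell, with a median of 0.00. The counts were 7 rises and 19 falls after quantile normalization, 13 and 13 when medians were aligned, 3 and 32 on the scale of the hybridization controls, and 5 and 25 when the probe sets of a gene were averaged. Opposite calls among the probe sets of a gene occurred in 9 of the 30 genes with over 1.

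Among 13 other kinases regulated by calmodulin or related to them, 3 rose and 4 fell (median -0.37). The pseudokinase Camkv, a dendritic spine protein, fell 3.59-fold (-1.84, SE 0.18, limma adjusted p = 6.94e-09), with 160 to 424 in IP (median 334) and 936 to 1463 in WB (median 1101). Its groups did not overlap. The CaMKI relatives Camk1d and Pnck fell 2.68-fold (adjusted p = 9.7e-05) and 2.53-fold (adjusted p = 0.00129). Eef2k, the kinase that slows translation elongation through phosphorylation of eEF2, rose 4.36-fold (2.13, SE 0.14, adjusted p = 1.16e-11), with 5216 to 12155 in IP (median 7762) and 1518 to 1996 in WB (median 1793). This Eef2k call rests on 1 of 3 probe sets, another of which fell, and their mean did not pass. Mylk, myosin light chain kinase, rose 1.53-fold (adjusted p = 0.00769) and Cask, a synaptic scaffold with a CaMK-like domain, 1.43-fold (adjusted p = 0.0252). Both were below 0 on the scale of the hybridization controls, without passing, and when their probe sets were averaged. Of the 2 means only that of Cask (-0.52) passed as a fall. Cask also missed the threshold in 3 of 18 fits with single arrays left out.

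Calmodulin-binding peptides of neurons gave 1 rise and 1 fall of 3 measured (median -0.05). Gap43, the growth cone protein, fell 5.51-fold (-2.46, SE 0.26, limma adjusted p = 3.52e-08), and its IP arrays (168 to 1071) were all below its WB arrays (2770 to 4894). Pcp4, which speeds calcium exchange of calmodulin, rose 1.86-fold (adjusted p = 3.25e-05), but was lower, and passed as a fall, after quantile normalization (-0.23), and was also below 0 on the scale of the hybridization controls (-0.050).

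Kinase inhibitors and opposing phosphatases gave 4 rises and 4 falls of 10 (median -0.26). Ppp1ca, the alpha catalytic subunit of protein phosphatase 1, fell 10.6-fold (-3.40, SE 0.20, limma adjusted p = 1.87e-12), with 91.9 to 365 in IP (median 310) and 2148 to 3395 in WB (median 2780). Its paralogs went the other way, Ppp1cb by 2.64-fold (adjusted p = 2.31e-09) and Ppp1cc by 2.37-fold (adjusted p = 5.86e-08). The catalytic calcineurin subunit Ppp3ca rose 2.17-fold (adjusted p = 6.06e-08), whereas the regulatory Ppp3r1 fell 2.24-fold (adjusted p = 1.03e-05). Camk2n2, an inhibitor protein of CaMKII, fell 2.36-fold (adjusted p = 9.27e-05). As the mean over probe sets Ppp1cc and Ppp3ca were lower, at -0.25 and -0.11, without passing, Ppp3ca did not pass after quantile normalization, and neither passed on the scale of the hybridization controls.

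Synaptic partners and substrates gave 3 rises and 4 falls of 8 (median -0.76). The glutamate receptor subunits were among the largest falls, with Grin2a down 8.74-fold (limma adjusted p = 9.22e-09), Gria1 7.1-fold (adjusted p = 1.45e-10) and Grin2b, which anchors CaMKII at the synapse, 3.36-fold (adjusted p = 5.5e-09). All 4 probe sets of Grin2b and both of Gria1 fell. Grin2a read at most 95.2 in IP (median 21.2) and 254 to 536 in WB (median 362), so its fold depends on the constant added. Syn1, the vesicle protein synapsin, rose 3.03-fold (adjusted p = 1.48e-09) on its single probe set, with 6301 to 14872 in IP and 2917 to 3845 in WB. The exchange factors Tiam1 and Kalrn rose 1.92-fold (adjusted p = 2.59e-05) and 1.72-fold (adjusted p = 0.00074). As the mean over their probe sets both were lower (-0.59 and -0.83) and passed as falls. Kalrn was also lower, without passing, after quantile normalization and on the scale of the hybridization controls, where Tiam1 did not pass either.

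Nuclear and metabolic substrates gave 1 rise and 3 falls of 11 (median -0.28). Prkaa2, a catalytic subunit of AMPK and so a target of Camkk2, fell 2.78-fold (limma adjusted p = 9.08e-07) with all 3 probe sets lower. Hdac5, a histone deacetylase that CaM kinases drive out of the nucleus, fell 2.6-fold (adjusted p = 5.93e-05), and the CREB coactivator Crebbp 1.54-fold (adjusted p = 0.0143), a call lost with median centring. Srf, a transcription factor, rose 1.31-fold (adjusted p = 0.0479), but it missed the threshold in 13 of 18 fits with single arrays left out, and its sign turned on the scale of the hybridization controls.

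**Figure D5:**
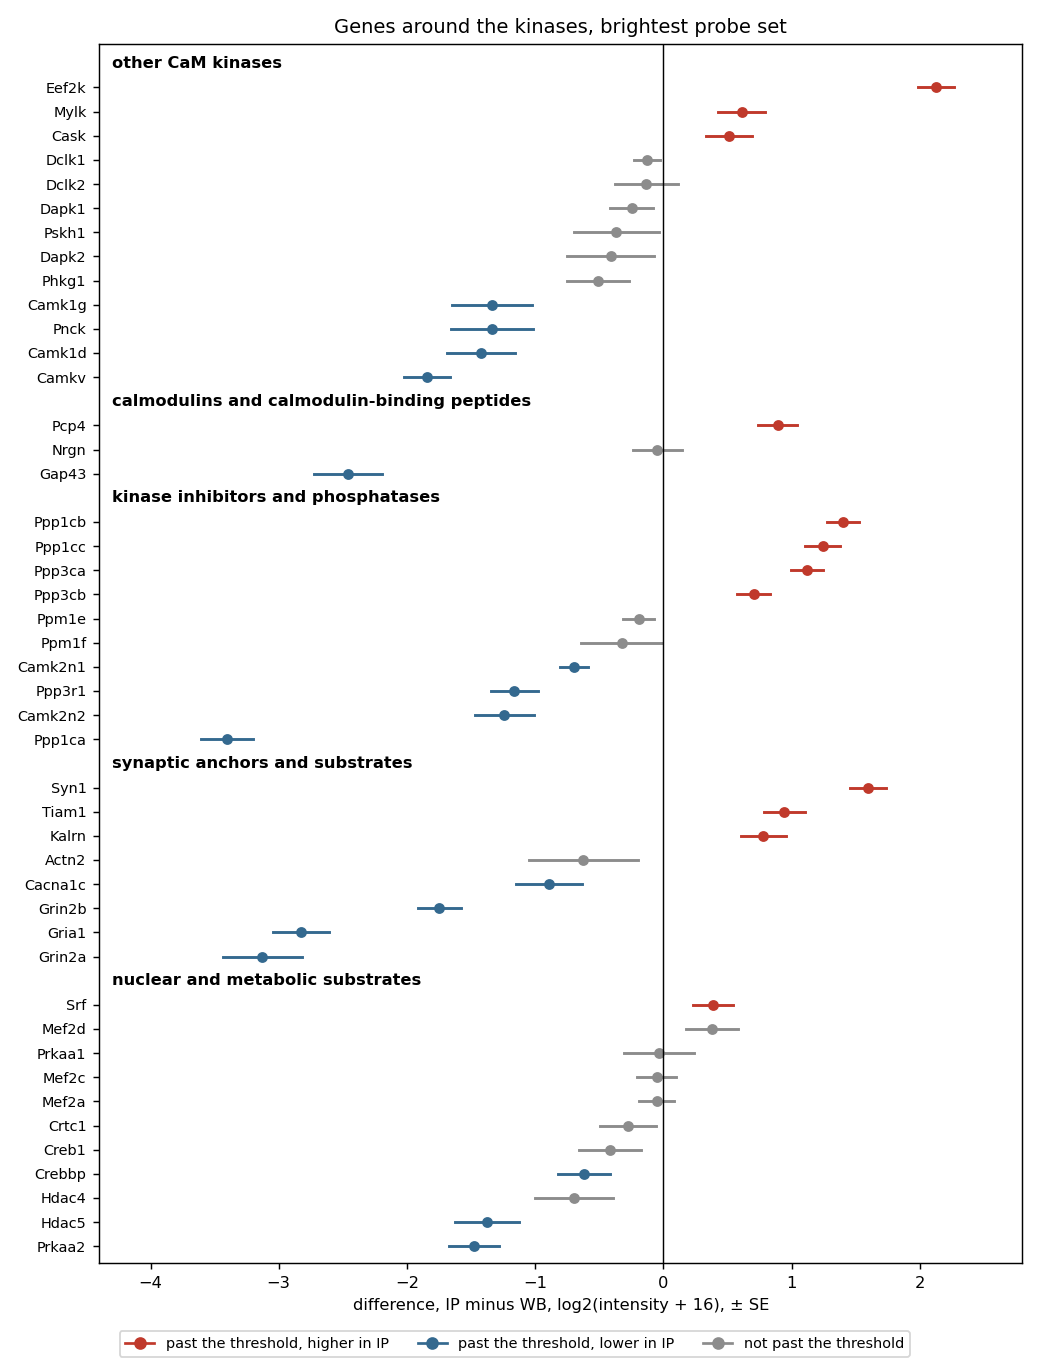
Difference between IP and WB (log2 scale, point) with its SE for 45 genes in 5 lists, each on its brightest probe set. Rises and falls occur in every list, from Ppp1ca at -3.40 to Eef2k at 2.13.

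Markers of cell types, each on its brightest probe set, moved in both directions beside the kinases. Of 5 general neuronal markers 3 rose and 2 fell, with a summed intensity of 74084 to 133153 in IP and 53362 to 73449 in WB. Of 4 measured markers of forebrain excitatory neurons, the cells richest in Camk2a, 2 rose and 1 fell (2815 to 6929 in IP, 3492 to 4519 in WB). Of 6 astrocyte markers 3 rose and 2 fell (36914 to 68237 in IP, 24391 to 33631 in WB), and of 5 measured oligodendrocyte markers 2 rose and 2 fell (35995 to 86472 in IP, 26160 to 38142 in WB). The oligodendrocyte sum is mostly Mbp, a riser, at a median of 35090 in IP and 19967 in WB, while Mobp (-0.90) and Mag (-1.30) fell. Of 5 microglial markers 1 rose and 3 fell (3705 to 8320 in IP, 2166 to 3784 in WB). That microglial sum is mostly Csf1r, the riser, at a median of 5147 in IP and 1606 in WB, while Aif1 had a difference of -3.58. Of 5 endothelial markers 0 rose and 4 fell (733 to 1359 in IP, 1683 to 2067 in WB), and of 2 measured red blood cell genes 0 rose and 1 fell (72 to 358 in IP, 399 to 791 in WB). Of 4 orexin neuron markers 1 rose and 1 fell (1210 to 2608 in IP, 994 to 1518 in WB). The riser was Nptx2, at a median of 1088 in IP and 409 in WB, and Pdyn fell (-1.30). Hcrt, the orexin gene itself, did not pass (0.21, medians 308 in IP and 248 in WB), nor did Lhx9 (-0.06). The counts depend on the probe set, since 7 of the 19 markers with over 1 probe set had opposite calls. By the mean over probe sets, an alternative chosen after seeing the data, 1 neuronal marker rose and 3 fell, 1 astrocyte marker rose and 4 fell, and 1 oligodendrocyte marker rose and 3 fell. Rbfox3 (-0.72), Aqp4 (-0.49) and Mbp (-0.28) then passed as falls. The other lists kept their counts. No marker probe set was listed at 0 on any array, and the part of cell makeup in the kinase values was not tested.

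The probe sets whose deviations from the group means were most like those of 1457311_at of Camk2a, over the 18 arrays, belonged to Gpr6 (Pearson r = 0.90), Fars2 (r = 0.84) and Syce2 (r = 0.82). They were the closest of all single-symbol probe sets searched. Arrays share scaling and labelling, so the correlations are descriptions. They differed between IP and WB by 0.52, 0.51 and 0.71, of which that of Syce2 passed the threshold (limma adjusted p = 0.00398).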

How the data were processed

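Arrays of 9 IP and 9 WB samples were grouped from the labels. The deposited values are intensities, for which the submitters' processing notes name MAS5, and each array's mean without the lowest and highest 2% was 500. Each target was amplified with NuGEN WT-Ovation Pico (5 ng of RNA), per the labels' protocols. Detection calls were not used here. Precision is limited by how many arrays there are.

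After adding 16 and taking log2, 45037 probe sets (64 array controls left out) were fitted with limma 3.58.1 in R 4.3.3 (eBayes with intensity trend, Benjamini-Hochberg adjustment). No filter on brightness was applied. The annotation gave 34945 probe sets with 1 gene symbol, 932 with several and 9160 with none listed. Symbols of 7 kinase genes matched a GRCm38.p6 gene table by Entrez ID. The class of source record was read from accession prefixes. The procedure was tested on simulated data. That simulation gave both groups the same spread, so it did not cover the wider spread of the IP arrays. The kinases, the gene lists and the cell type markers were chosen with earlier results of these data known. All kinase probe sets are named, and from each list of surrounding genes at most 3 rises and 3 falls, the largest among those past the threshold. Alternatives were other constants (1 and 64), 3 scalings, a brightness filter (upper 50%), no trend, weights per array, the replicate number as a block, single arrays left out and the mean over a gene's probe sets. Leaving out 4 IP arrays together, and the mean over probe sets for the markers, were chosen after seeing the data. No 2 arrays held identical values (0 pairs). Probe sequences were not used here.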

Additional observations from a re-analysis of the deposited data

Results flagged for a closer look

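Dixon's gap over range was taken in 54 sets of 9 arrays (27 kinase probe sets per group), on the log2 scale of the differences. By its 95% critical value, 4 values lay far from the rest of their group on that scale. The values printed below beside the ratios are intensities, and whether they stand out on the intensity scale was not tested. Chance flags about 1 in 20 groups. IP replicate 9 was low on the Camk2b probe set 1448676_at (149, ratio 0.586) and on 1439168_at of Camk2d (20.1, ratio 0.526). IP replicate 2 was low on 1460630_at of Camk2d (102, ratio 0.525), a probe set that did not pass the threshold. WB replicate 4 was low on the dim 1441734_at of Camk2a (18.6, ratio 0.496), and without it the difference of that probe set was -1.41.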

How the results depend on the processing

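The 4 rises and 20 falls of the kinase probe sets, and the 4 genes with opposite calls, were compared across alternatives. Falls numbered 13 with median centring. Scaling on the hybridization controls gave 2 rises, 2 genes with opposite calls and -0.27 for 1423941_at of Camk2g, which did not pass. Leaving out each array in turn gave 4 to 4 rises, 18 to 20 falls and 4 to 4 genes with opposite calls. Without IP replicates 2, 5, 6 and 8 together there were 17 falls. Over the genes around the kinases (12 rises, 16 falls), the counts were 7 rises with quantile normalization, 3 rises and 32 falls with the hybridization controls, 5 rises and 25 falls with the mean over probe sets, and 10 to 12 rises and 16 to 18 falls leaving out each array. Direction turned for Pcp4 (-0.23) and Kalrn (-0.11) with quantile normalization. It turned, without any of them passing, for Cask (-0.43), Mylk (-0.33), Pcp4 (-0.050), Kalrn (-0.16) and Srf (-0.56) with the hybridization controls. It turned for Cask (-0.52), Mylk (-0.19), Ppp1cc (-0.25), Ppp3ca (-0.11), Kalrn (-0.83) and Tiam1 (-0.59) with the mean over probe sets. Of these means, those of Cask, Kalrn and Tiam1 passed as falls. The cause was not tested. The replicate block gave 4 rises, 20 falls and 4 genes with opposite calls among the kinases, and 12 rises and 17 falls around them. Same-numbered IP and WB arrays had correlations of deviations from -0.05 to 0.08, and 2 of 9 IP arrays correlated best with their own number. The labels do not say whether a number marks a shared animal. These correlations cannot decide it, since the IP arrays vary widely among themselves. Signal near the 6.31 of the trpn controls limits 4 kinase probe sets in IP.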
